A study of Mus musculus with 12 samples.

Results

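The proteasome subunit genes were followed through 4 groups of mouse spleen cell libraries, and the 5 interferon-linked "immune" subunits, Psmb8, Psmb9, Psmb10, Psme1 and Psme2, were set against the other subunits. Members were all genes whose symbol is Psma, Psmb, Psmc, Psmd, Psme, Psmf or Psmg followed by a number, with a mean of at least 1 CPM (a gene's share of the counts, brought to the same total in every library) over the 12 libraries. Of the 20778 gene symbols in the count table, 49 had such a symbol and 47 reached the mean, which gave 5 immune and 42 other subunits. The 2 genes left out were Psma8, a testis form of an α subunit, with a mean of 0.0233 CPM, and Psmb11, the thymus form of a catalytic subunit, with 0.839 CPM. The member nearest to that minimum from above was Psmg3, with a mean of 15 CPM.

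The proteasome is the large protease that degrades ubiquitin-tagged proteins and so supplies most peptides for MHC class I. Its 20S core is a barrel of outer rings of α subunits and inner rings of β subunits, and the proteolytic activity sits in the β subunits encoded by Psmb5, Psmb6 and Psmb7. In cells exposed to IFNγ, and in many lymphoid cells at rest, newly built cores carry Psmb8 in place of Psmb5, Psmb9 in place of Psmb6 and Psmb10 in place of Psmb7, and this form is called the immunoproteasome. The core is opened either by the 19S regulator, made of a ring of ATPases (Psmc genes) and a set of non-ATPase subunits (Psmd genes), or by the PA28 ring of Psme1 and Psme2.

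The cells were taken from spleens of C57BL/6 mice with magnetic beads for CD8 T cells and were cultured for 6 hours. The 3 Naïve libraries received no stimulus, 3 received αCD3, an antibody that triggers the T cell receptor complex, at 1 µg/ml, 3 received IFNγ, the main cytokine of activated T cells, at 70 ng/ml, and 3 received LPS, a bacterial wall component, at 1 µg/ml. The labels give the mice an age of 6 weeks where the study's methods give an older one, and they write the αCD3 and LPS doses in mg/ml in another field, so age and dose unit are uncertain. Nothing states that the 3 libraries of a group came from separate animals, so p-values measure only the spread between these libraries.

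The libraries held estimated counts of 10.2 M to 27.6 M each. Of the CD8 T cell markers, 8 of 10 were in the table and none was at 0 throughout, with summed levels of 1509 to 1684 CPM in Naïve, 2019 to 2251 in αCD3, 1545 to 1662 in IFNγ and 1226 to 1407 in LPS. Against Naïve, 4 of these 8 were higher under αCD3 and 6 lower under LPS (edgeR adjusted p under 0.05), beside 22.9% and 22.3% of all tested genes. None was called, that is past this threshold, under IFNγ. B cell markers, 11 of 12 in the table and none at 0 throughout, were also abundant, with sums of 3499 to 3826 CPM in Naïve, 2453 to 2871 in αCD3, 2864 to 3011 in IFNγ and 2082 to 3122 in LPS. Of these 11, 5 were lower under αCD3 (8 with the replicate number as a block in the fit), 2 under IFNγ (3 with the block) and 4 under LPS (4 with the block) than in Naïve, beside 15.7%, 4.27% and 22.3% of all tested genes without the block. Under LPS 1 was higher (3 with the block) and under IFNγ none (1 with the block), beside 26.9% and 8.17% without the block. Erythroid markers, 7 of 8 in the table, summed to 338 to 1882 CPM in Naïve, 409 to 1593 in αCD3, 575 to 4142 in IFNγ and 481 to 2900.1 in LPS. None of these 7 was called in any comparison. With the block, 6 were higher in IFNγ than in Naïve, beside 13.5% of all tested genes, 2 were higher in IFNγ than in LPS, beside 25.8%, and 4 were lower in αCD3 than in LPS, beside 18.2%. It also called 3 higher in LPS than in Naïve and 5 in IFNγ than in αCD3, where 26.9% and 15.8% of all tested genes were higher without it. Myeloid markers, all 14 in the table, summed to 665 to 1104 CPM in Naïve, 531 to 899 in αCD3, 728 to 1315 in IFNγ and 624 to 855 in LPS, and of the 13 tested 6 were lower under αCD3, 1 under IFNγ and 7 under LPS than in Naïve (10, 4 and 10 with the block), while 1 was higher in each. The other lists had lower sums over the 12 libraries, of 66.9 to 122 CPM for CD4 T cells, 97.6 to 288 for NK cells, 48 to 118 for dendritic cells, 59.6 to 115 for neutrophils and 8.11 to 25.5 for platelets. For the myeloid list and these lists, the shares of all tested genes against Naïve were 22.9% higher and 15.7% lower under αCD3. They were 8.17% and 4.27% under IFNγ and 26.9% and 22.3% under LPS. With the block, the share of genes lower than in Naïve is not given. Counts of 1 or 2 in such short lists are not read as a change. Against Naïve, 2 of 4 CD4 markers were lower under αCD3 and 3 under LPS, 2 of 6 dendritic markers were lower under αCD3 and 2 under IFNγ, with 1 lower and 1 higher under LPS, and 1 of 6 NK markers was higher under αCD3, 1 higher under IFNγ and 1 lower under LPS. Of 4 tested neutrophil markers 1 was lower under αCD3, and of 4 platelet markers 1 was lower under αCD3 and 2 under LPS. The libraries therefore hold RNA of other blood cells beside that of CD8 T cells, and its part in the results below was not tested. In bulk RNA, fewer cells of a type and less RNA per cell cannot be told apart. The library numbered 1 was the lowest of its group for 42 of the 47 members in Naïve, 46 in αCD3, 40 in IFNγ and 43 in LPS, against 38.1% to 42.6% of all tested genes, so counts of immune subunits that change without these 4 libraries are given both ways.

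The promoters of the immune subunits are shown first, since these genes rose together under IFNγ. The windows hold 250 bases before and 50 from the RefSeq start site (GRCm38.p6), and 40 of the 47 members had one. The last 120 bases before the start are printed 5′ to 3′, and none of these 5 stretches held a match of either searched motif.
Psmb8, chr17:34198075-34198194, plus strand: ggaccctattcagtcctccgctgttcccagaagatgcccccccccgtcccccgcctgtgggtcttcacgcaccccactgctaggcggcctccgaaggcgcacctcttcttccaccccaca
Psmb9, chr17:34187331-34187450, minus strand: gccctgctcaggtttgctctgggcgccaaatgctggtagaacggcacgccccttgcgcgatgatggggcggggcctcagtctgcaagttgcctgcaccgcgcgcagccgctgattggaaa
Psmb10, chr8:105938393-105938512, minus strand: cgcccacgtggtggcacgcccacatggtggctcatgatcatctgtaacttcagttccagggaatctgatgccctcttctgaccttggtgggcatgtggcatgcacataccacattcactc
Psme1, chr14:55578374-55578493, plus strand: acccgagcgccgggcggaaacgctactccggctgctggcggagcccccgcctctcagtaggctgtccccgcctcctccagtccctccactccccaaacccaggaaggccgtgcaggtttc
Psme2, chr14:55591102-55591221, minus strand: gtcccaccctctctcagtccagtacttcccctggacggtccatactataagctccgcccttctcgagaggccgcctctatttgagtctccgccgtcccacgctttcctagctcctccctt
Just past its start, Psme1 had a pair of overlapping matches within the stretch printed next, and the constitutive catalytic genes Psmb5 and Psmb6 had matches of the other motif before theirs, the matches being in capitals. Psmb6 also held a match of the first motif farther upstream, outside the stretch shown.
Psme1, chr14:55578495-55578524, plus strand: agctgtgcTTTCGCTTTCCCTTcccgctgc
Psmb5, chr14:54618019-54618057, minus strand: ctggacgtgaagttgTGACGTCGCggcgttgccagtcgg
Psmb6, chr11:70525333-70525356, plus strand: gcggactaaagagagTGACGGAGC

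Both motifs were searched on both strands of the whole windows. A member was counted once if any window of it held a match. The shares of all windows count single windows, so counts and shares are not like for like. The core letters of the element bound by IRF factors, AANNGAAA, were in the windows of 13 of the 40 members, Psmb6 among them, and in 23.9% of all 32851 promoter windows, and Psme1 was the only immune subunit among them, with its matches on the reverse strand. The antioxidant response element, TGACNNNGC, bound by Nfe2l1 and Nfe2l2, was in 6 members (Psmb5, Psmb6, Psmc6, Psmd9, Psmd12 and Psme4), in none of the immune subunits and in 12.4% of all windows. No match in a member overlapped one of the other motif, and the windows of Psmb8, Psmb9, Psmb10 and Psme2 held neither. A match is only a run of letters, and a missing one says nothing of the factor. RefSeq and GENCODE place the starts of some of these genes differently. The stretches printed for Psmb8, Psmb9 and Psme1 lie within the GENCODE gene bodies given next, and those for Psmb10 and Psme2 lie partly within them. The gene bodies in GENCODE M21 (GRCm38) lie at chr17:34197721-34201454 for Psmb8 and chr17:34181987-34187764 for Psmb9, both in the MHC region, at chr8:105935735-105938444 for Psmb10, and at chr14:55578123-55581529 for Psme1 and chr14:55587441-55591113 for Psme2.

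To ask which subunits respond to IFNγ, the IFNγ and Naïve libraries were compared. All 5 immune subunits rose, with fold changes of 2.21 to 3.29, while 8 of the 42 other subunits rose and none fell. Of all tested genes, 8.17% rose and 4.27% fell. The median log2 fold change was 1.18 over the immune subunits and 0.10 over the other subunits, beside −0.02 over all tested genes. A gene is said to rise or fall where the Benjamini-Hochberg adjusted p of edgeR's quasi-likelihood test is under 0.05. Whether the libraries of compared groups overlap is given here and below as a description only, without its share over all tested genes.

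Psmb9, the β1 immune subunit, stood at 55.8, 67.2 and 71.4 in Naïve and 192, 239 and 208 in IFNγ (CPM after TMM scaling, replicates 1 to 3 in order, here and below). Every IFNγ library was above every Naïve one (log2 fold change 1.72 ± 0.24 SE, edgeR adjusted p = 0.00151). Psmb10, the β2 immune subunit, stood at 45.1, 65.7 and 63.6 in Naïve and 105, 171 and 163 in IFNγ, again without overlap (log2 fold change 1.33 ± 0.25 SE, edgeR adjusted p = 0.00669). Psmb8, the β5 immune subunit and target of immunoproteasome inhibitors, stood at 152, 172 and 182 in Naïve and 313, 399.6 and 404 in IFNγ. The lowest IFNγ library was well above the highest Naïve one (log2 fold change 1.14 ± 0.16 SE, edgeR adjusted p = 0.00145).

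The genes of the PA28 activator behaved alike. Psme1 stood at 270.1, 311 and 297 in Naïve and 561, 713 and 682 in IFNγ (log2 fold change 1.16 ± 0.15 SE, edgeR adjusted p = 0.000869). Psme2 stood at 193, 246 and 241 in Naïve and 439, 558 and 544 in IFNγ (log2 fold change 1.18 ± 0.16 SE, edgeR adjusted p = 0.00103). The groups overlapped for neither gene. Psme2b, a near copy of Psme2 on chromosome 11, had the largest fold of any member, 3.92, from 18.2, 15.1 and 12.4 in Naïve and 55.2, 63.5 and 60.9 in IFNγ (log2 fold change 1.97 ± 0.26 SE, edgeR adjusted p = 0.00121). Only 21.6% of its 31-base words were unique to it and 66.5% of those of Psme2, so the split of reads between them is uncertain. The 3 immune catalytic genes and Psme1 had 86.3% to 100% of words of their own. The calls of all 5 immune subunits and of Psme2b held in each of the 18 refits under other settings.

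**Figure D1:**
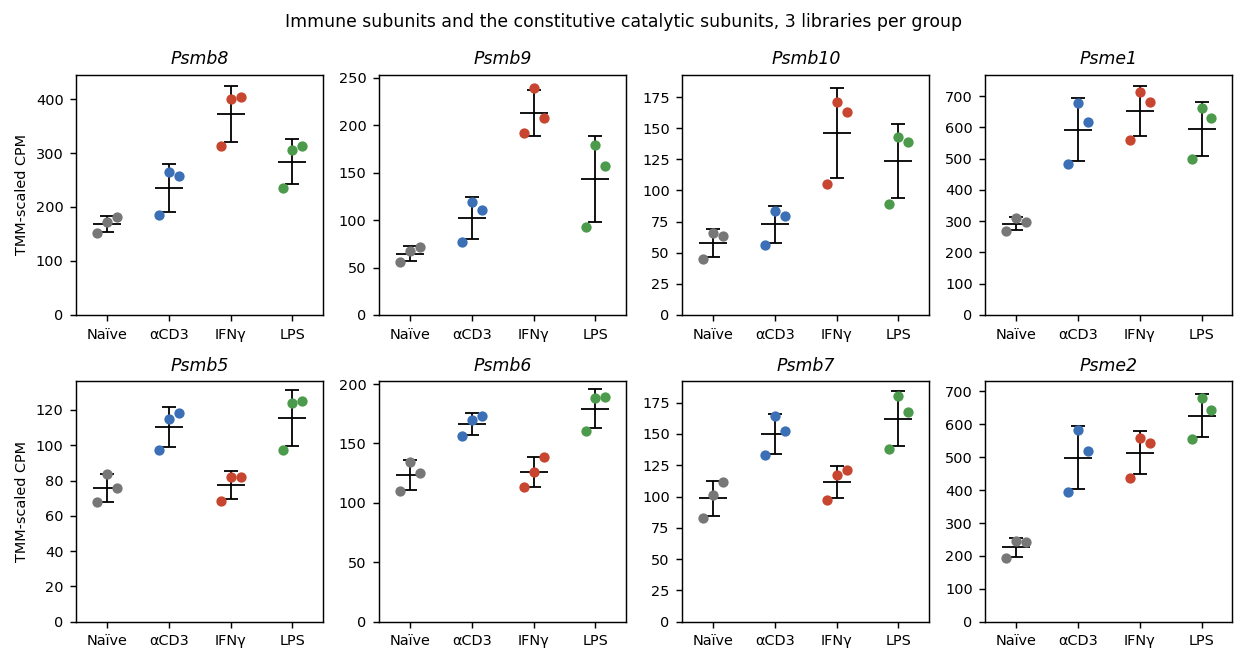
Levels of the immune subunits and of the constitutive catalytic subunits in each library (y axis, TMM-scaled CPM, each from 0), by group (x axis). Points are libraries in replicate order, horizontal lines the mean and bars ± SD (n = 3). IFNγ libraries of Psmb8 reach 313 to 404 against 152 to 182 in Naïve, while Psmb5 shows 68.3 to 82.2 against 67.8 to 83.8.

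The constitutive catalytic subunits did not pass the test under IFNγ. Psmb5, the chymotrypsin-like β5 subunit, stood at 67.8, 83.8 and 76 in Naïve and 68.3, 81.7 and 82.2 in IFNγ (log2 fold change 0.03 ± 0.13 SE, edgeR adjusted p = 0.917). Psmb6, the β1 subunit, stood at 109.7, 135 and 125 in Naïve and 113, 126 and 138 in IFNγ (log2 fold change 0.03 ± 0.10 SE, edgeR adjusted p = 0.879). Psmb7, the β2 subunit, stood at 83.2, 101 and 111 in Naïve and 97.3, 117 and 121 in IFNγ (log2 fold change 0.18 ± 0.14 SE, edgeR adjusted p = 0.459), and it was called higher with the replicate number as a block (adjusted p = 0.0372). The groups overlapped for all 3 genes. Only 28.3% of the words of Psmb5 were its own, others being shared with the pseudogene Psmb5-ps and with Gm3375.

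Among the classes of 3 or more genes outside the immune set, the α ring had the highest median. Of its 7 genes, which form the gate and outer wall of the core, Psma2, Psma3, Psma5 and Psma7 rose, and its median was 0.55. Psma5 stood at 79.6, 96.1 and 99.9 in Naïve and 119, 147 and 152 in IFNγ (log2 fold change 0.60 ± 0.14 SE, edgeR adjusted p = 0.0188), although only 39.0% of its words were its own. Psma2 stood at 93.6, 116 and 114 in Naïve and 136, 170.4 and 176 in IFNγ (log2 fold change 0.58 ± 0.14 SE, edgeR adjusted p = 0.0195). Both genes had all IFNγ libraries above all Naïve ones. Psma4 had a larger change, of 0.65 (edgeR adjusted p = 0.0503), that narrowly missed the threshold. With the replicate block, all 7 α genes were called higher, as were Psmb1, Psmb4 and Psmb7, and the other subunits called came to 14, beside 13.5% of all tested genes called higher.

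The regulatory particle showed no such calls. None of the 6 ATPases was called, with log2 fold changes of −0.04 to 0.16, and none of the 11 non-ATPase subunits, with −0.08 to 0.17. Neither class gained a call with the block. Psmd1, the largest scaffold of the particle, stood at 142, 151 and 152 in Naïve and 142, 142 and 147 in IFNγ, and Psmc5, an ATPase, at 84.2, 94.7 and 102 in Naïve and 88.7, 98.8 and 95 in IFNγ, the groups overlapping in both. The remaining calls were Psmg4, Psme4 and Psmf1, described with the regulators below.

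The count of 8 rested on single libraries. It was 1 without Naïve replicate 1, IFNγ replicate 2 or IFNγ replicate 3, 2 without Naïve replicate 2, 3 without Naïve replicate 3, 4 without αCD3 replicate 3 or LPS replicate 3, 5 without LPS replicate 2, and 11 without the 4 libraries numbered 1. On plain library size, which moved the median of all genes to −0.16, the other subunits had a median of −0.04, with 4 higher and 2 lower (Psmd1 and Psmd2), whereas the immune subunits had a median of 1.04 and 5 calls. Leaving out 1 library gave medians of 0.03 to 0.15 over the other subunits.

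**Figure D2:**
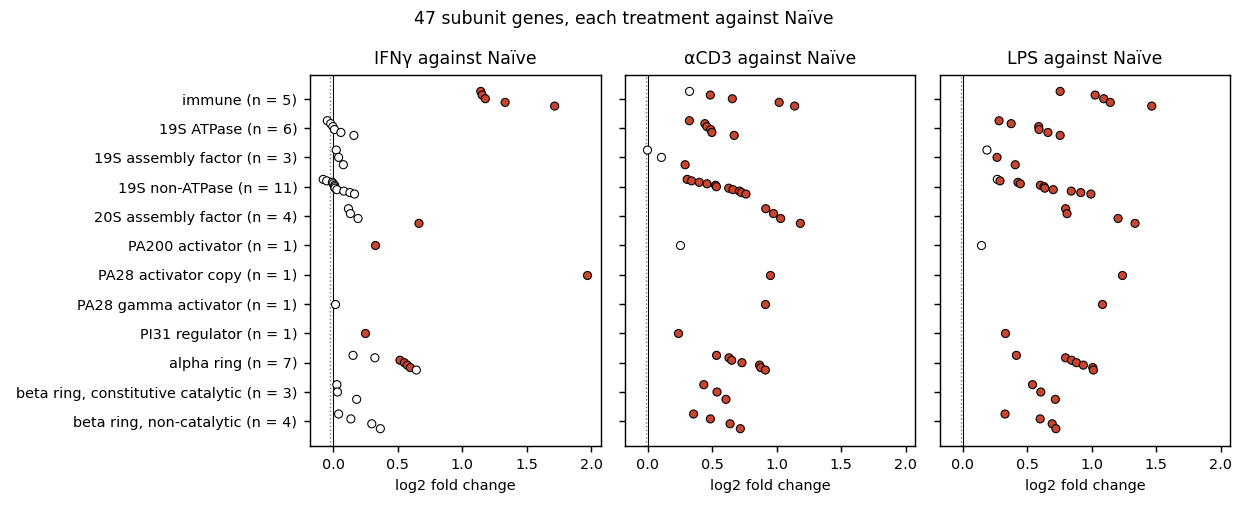
Log2 fold changes against Naïve (x axis) of the 47 genes by class (y axis, n genes), for each treatment. Filled points passed edgeR's adjusted p threshold, open points did not, the solid line marks 0 and the dotted line the median of all tested genes. Under IFNγ the 19S classes sit between −0.08 and 0.17, and under αCD3 and LPS the points of nearly all classes are filled and right of 0.

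To ask how T cell receptor stimulation compares, the αCD3 libraries were set against the same Naïve libraries. Here the rise was broad: 39 of the 42 other subunits and 4 of the 5 immune subunits rose and none fell, beside 22.9% of all tested genes that rose and 15.7% that fell. The medians were 0.57 over the other and 0.65 over the immune subunits, beside −0.02 over all tested genes. The subunits not called were Psmb10, Psmd9, Psmd10 and Psme4.

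The PA28 genes rose about as far as under IFNγ, with αCD3 values for Psme1 of 482, 679 and 617 (log2 fold change 1.02 ± 0.15 SE, edgeR adjusted p = 0.000357) and for Psme2 of 396, 583 and 518 (log2 fold change 1.14 ± 0.16 SE, edgeR adjusted p = 0.000268). All 6 values were above the Naïve range. The immune catalytic genes had smaller log2 fold changes. Psmb8 stood at 184, 265 and 257 in αCD3 (log2 fold change 0.48 ± 0.16 SE, edgeR adjusted p = 0.0345) and Psmb9 at 76.6, 119 and 111 (log2 fold change 0.65 ± 0.24 SE, edgeR adjusted p = 0.0486). In both, αCD3 replicate 1 lay just above the highest Naïve library. Psmb10 stood at 55.9, 83.1 and 79.3 and overlapped Naïve (log2 fold change 0.32 ± 0.25 SE, edgeR adjusted p = 0.329), and was called only with the replicate block (adjusted p = 0.000284, where 28.1% of all tested genes were called higher) and without the 4 libraries numbered 1, where all 5 were called. The count of 4 fell to 2, the PA28 genes, without any single one of Naïve replicates 1, 2 and 3 and αCD3 replicates 2 and 3.

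The constitutive core and the 19S particle rose with them. Psmb5 reached 97.1, 115 and 118 (log2 fold change 0.54 ± 0.12 SE, edgeR adjusted p = 0.00654), Psmb6 156, 169 and 173 and Psmb7 133, 165 and 152, with no overlap with Naïve in any of them. The log2 fold changes of Psmb6 and Psmb7 were 0.43 (edgeR adjusted p = 0.00668) and 0.61 (edgeR adjusted p = 0.00562). All 7 α genes rose, led by Psma5 with 0.91 (edgeR adjusted p = 0.000578) and Psma4 with 0.87 (edgeR adjusted p = 0.00472). All 6 ATPases rose, by 0.32 to 0.67, as did all 11 non-ATPase subunits, by 0.30 to 0.76. Psme2b changed by 0.94 (edgeR adjusted p = 0.0164), with αCD3 values of 17.9, 41.6 and 29.6 that overlapped Naïve, and its call was lost without Naïve replicate 3 or αCD3 replicate 2. Psmd10 (gankyrin), a chaperone of 19S assembly, stood at 15.2, 16.8 and 14.7 in αCD3 against 14.3, 15.8 and 16.6 in Naïve and was not called in any comparison with Naïve.

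Both sets rose under LPS. All 5 immune subunits rose and so did 39 of the 42 others, the exceptions being Psmd8, Psmd10 and Psme4, and none fell. Of all tested genes, 26.9% rose and 22.3% fell. The medians were 1.09 over the immune and 0.65 over the other subunits, beside −0.01 over all tested genes. On plain library size the median of all genes moved to −0.22, and the others called higher were 32 with none lower. Psmd8 missed the threshold with 0.27 (edgeR adjusted p = 0.056) and passed it with the block (adjusted p = 0.000952).

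Psmb8 stood at 235, 305 and 313 in LPS (log2 fold change 0.76 ± 0.16 SE, edgeR adjusted p = 0.0029), Psmb9 at 92.2, 179 and 157 (log2 fold change 1.14 ± 0.24 SE, edgeR adjusted p = 0.00264) and Psmb10 at 89.2, 143 and 139 (log2 fold change 1.09 ± 0.25 SE, edgeR adjusted p = 0.00459). In each, LPS replicate 1 was well below the other LPS libraries and still above the Naïve range. Psme1 stood at 499, 661 and 629 (log2 fold change 1.03 ± 0.15 SE, edgeR adjusted p = 0.000225), and Psme2, with 554, 681 and 643, changed most of the 5 (log2 fold change 1.47 ± 0.16 SE, edgeR adjusted p = 3.3e-05). Among the others, Psme2b changed by 1.23 (edgeR adjusted p = 0.00305), Psma4 by 1.01 (edgeR adjusted p = 0.00146) and Psma5 by 1.01 (edgeR adjusted p = 0.000205). Psmb5 stood at 97, 124 and 125 (log2 fold change 0.61 ± 0.12 SE, edgeR adjusted p = 0.00239), Psmb6 at 160.3, 188 and 189 and Psmb7 at 138, 181 and 168, all above the Naïve ranges. Psmb6 and Psmb7 changed by 0.54 (edgeR adjusted p = 0.00133) and 0.72 (edgeR adjusted p = 0.00151).

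The treatments were then compared with each other, since the comparisons with Naïve share their control libraries. Against αCD3, IFNγ libraries had higher Psmb8, Psmb9 and Psmb10 and lower levels of 27 of the 42 other subunits, while 1 of the 42, Psme2b, was higher. Of all tested genes 15.8% were higher and 21.4% lower. The medians were 0.66 over the immune and −0.41 over the other subunits, beside 0.03 over all tested genes.

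Psmb9 was 2.09-fold higher under IFNγ than under αCD3 (log2 fold change 1.06 ± 0.23 SE, edgeR adjusted p = 0.00505), Psmb10 2.01-fold (log2 fold change 1.01 ± 0.25 SE, edgeR adjusted p = 0.00891) and Psmb8 1.58-fold (log2 fold change 0.66 ± 0.16 SE, edgeR adjusted p = 0.00795). For these 3 genes no αCD3 library reached the lowest IFNγ library. Psme1 and Psme2 did not pass, with 0.14 (edgeR adjusted p = 0.489) and 0.04 (edgeR adjusted p = 0.856), and their libraries overlapped. Psme1 was called higher under IFNγ with the block (adjusted p = 0.045). All 11 non-ATPase subunits and 5 of the 6 ATPases were lower under IFNγ. Psmd1, at 224, 257 and 249 in αCD3 and 142, 142 and 147 in IFNγ, had -0.76 (edgeR adjusted p = 1.34e-05), Psmc5 had -0.66 (edgeR adjusted p = 0.000268) and Psmd3, a scaffold of the lid, had -0.63 (edgeR adjusted p = 4.67e-05). The α ring had fewer calls, with 1 gene of 7, Psma6, called lower and a median of −0.23, or 6 of 7 with the block, beside 25.9% of all tested genes called lower with it. Psmb5, Psmb6 and Psmb7 were all lower, with -0.51, -0.40 and -0.42 on the log2 scale.

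Against LPS, none of the 5 immune subunits differed by the test without the block, while 30 of the 42 others were lower under IFNγ and 1, Psme2b, higher, beside 22.4% of all tested genes lower and 18.0% higher. The call of Psme2b (log2 fold change 0.74 ± 0.25 SE, edgeR adjusted p = 0.039) was lost in 8 of 18 refits, with no count filter and without any single one of Naïve replicate 2, αCD3 replicate 3, IFNγ replicates 1, 2 and 3 and LPS replicates 1 and 3. With the block Psme4 was called higher too (adjusted p = 0.0227). The medians were 0.24 over the immune and −0.47 over the other subunits, beside 0.04 over all tested genes. The immune median rested on single libraries, being 0.05 without LPS replicate 1, 0.11 without IFNγ replicate 2, 0.16 without IFNγ replicate 3 and 0.43 without IFNγ replicate 1. Psmb8 and Psmb9 had 0.39 (edgeR adjusted p = 0.0755) and 0.57 (edgeR adjusted p = 0.0735), with every IFNγ library above the highest LPS library, narrowly so for Psmb8, and Psmb10 had 0.24 (edgeR adjusted p = 0.464) with overlap. With the replicate block these 3 genes were called higher under IFNγ (adjusted p = 0.000249, 0.00289 and 0.00152 for Psmb8, Psmb9 and Psmb10), and Psme2 was called lower (adjusted p = 0.000874), beside 25.8% of all tested genes called higher and 26.9% lower with the block. The same count, 3 higher and 1 lower, was found without the 4 libraries numbered 1. Of the 7 α genes, 2 were lower under IFNγ than under LPS, or 6 with the block. Single libraries moved the immune count to 1, namely αCD3 replicate 1, IFNγ replicate 1 and LPS replicate 2 when each was left out.

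Between αCD3 and LPS, none of the immune subunits and 2 of the others, Psmd9 and Psmd11, were called, both lower under αCD3, where 9.76% of all tested genes were lower and 9.64% higher. The medians were −0.33 over the immune and −0.10 over the other subunits, and leaving out 1 library gave −0.46 to −0.19 and −0.17 to −0.02. At an unadjusted p under 0.05, 1 of the 5 immune subunits passed in this comparison and 2 in IFNγ against LPS. The share of all tested genes that pass this looser threshold is not given, so these counts do not set the immune subunits apart. Psmb10 came nearest to the adjusted threshold here, with 55.9, 83.1 and 79.3 in αCD3 and 89.2, 143 and 139 in LPS and no overlap (log2 fold change -0.77 ± 0.25 SE, edgeR adjusted p = 0.053). With the block, Psmb8, Psmb9, Psmb10 and Psme2 were called lower under αCD3, as were 8 of the others, beside 18.2% of all tested genes. Without the 4 libraries numbered 1, 4 immune and 6 other subunits were called, all lower. The immune count was 2 without LPS replicate 1 and 1 without Naïve replicate 1 or IFNγ replicate 1. The count of 2 others was 0 or 1 without any single library except LPS replicate 1.

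**Figure D3:**
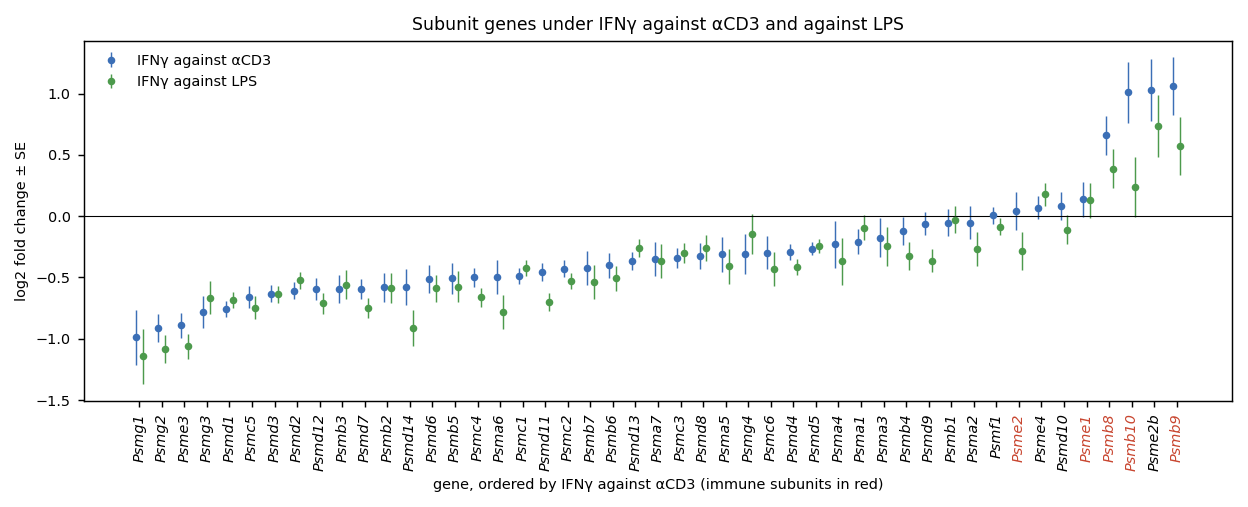
Log2 fold changes ± SE (y axis) of IFNγ against αCD3 and of IFNγ against LPS for each subunit gene (x axis, ordered by the first, immune subunits in red). The IFNγ libraries enter both comparisons. Psmb8, Psmb9, Psmb10 and Psme2b sit at the right end above 0 in both comparisons, Psme2 sits at 0.04 against αCD3 and −0.29 against LPS, and most other genes lie below 0.

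The summed level of the 5 immune subunits was 716, 861 and 855 in Naïve, 1194, 1730.3 and 1582 in αCD3, 1609, 2080.4 and 2002 in IFNγ and 1469, 1969 and 1882 in LPS, in CPM. That of the 42 others was 3891, 4448 and 4404 in Naïve, 5746, 6895 and 6568 in αCD3, 4394, 5009 and 5050.1 in IFNγ and 6057, 7186 and 6978 in LPS. The immune sum was above the Naïve range in all 9 treated libraries, and the sum of the others in 3 IFNγ libraries spanned from below the highest Naïve library to above it, whereas it was higher than in any Naïve or IFNγ library under αCD3 and LPS.

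The balance of immune over constitutive catalytic subunits can be read within each library, where the scaling of the library drops out. The ratio of Psmb8 to Psmb5 was 2.24, 2.05 and 2.39 in Naïve, 1.9, 2.31 and 2.18 in αCD3, 4.58, 4.89 and 4.92 in IFNγ and 2.43, 2.46 and 2.51 in LPS. The ratio of Psmb9 to Psmb6 was 0.509, 0.499 and 0.57 in Naïve, 0.491, 0.704 and 0.638 in αCD3, 1.69, 1.89 and 1.5 in IFNγ and 0.575, 0.952 and 0.834 in LPS. The ratio of Psmb10 to Psmb7 was 0.542, 0.65 and 0.571 in Naïve, 0.42, 0.505 and 0.521 in αCD3, 1.08, 1.46 and 1.35 in IFNγ and 0.647, 0.791 and 0.83 in LPS. For all 3 pairs the 3 IFNγ ratios were above those of the 9 other libraries. Relative to Naïve the ratios were 2.16, 3.22 and 2.19 times as high under IFNγ, in the order of the pairs above, 1.11, 1.47 and 1.28 times under LPS, and 0.955, 1.15 and 0.819 times under αCD3. The Psmb10 ratio of every αCD3 library was below every Naïve ratio. With 3 libraries against 3, the exact two-sided permutation test cannot go below p = 0.1, which it reached for each pair in IFNγ against Naïve, αCD3 and LPS. The same smallest p was reached without IFNγ libraries for the Psmb8 ratio in LPS against Naïve and in αCD3 against LPS, for the Psmb9 ratio in LPS against Naïve, and for the Psmb10 ratio in αCD3 against Naïve and against LPS. Adjusted over the 18 tests of ratios, this exact p was 0.129 in all these comparisons. The permutation took the libraries as unpaired by replicate number, and at its floor it cannot tell large shifts from small ones.

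**Figure D4:**
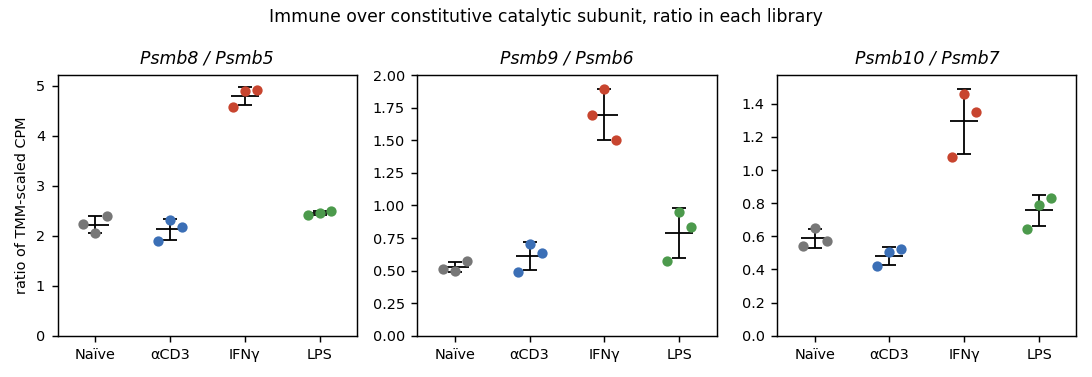
Ratio of the immune to the constitutive catalytic subunit in each library (y axis, ratio of TMM-scaled CPM, from 0) by group (x axis), for the 3 pairs. Points are libraries, lines the mean and bars ± SD (n = 3). The IFNγ points lie above all others, at 4.58 to 4.92 for Psmb8 over Psmb5.

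Levels of different genes were compared per kilobase of the principal transcript. On that scale Psme1 and Psme2 were the most abundant members in every group. In Naïve libraries they stood at 263 ± 18.7 and 236 ± 30.1 CPM per kb (SD, n = 3), followed by Psmb6 at 154 ± 15.7 and Psma7 at 151 ± 17.8, a pair that differed by less than its spread. The lowest member in every group was Psmd9, a chaperone of 19S assembly, at 7.13 ± 0.335 in Naïve. Psmb8 ranked 12 of 47 in Naïve and in αCD3, 11 in LPS and 3 in IFNγ. Psmb9 ranked 30 in Naïve, 29 in αCD3, 23 in LPS and 7 in IFNγ, and Psmb10 33, 37, 29 and 15 in the same order of groups. Per kilobase, Psmb8 stood above Psmb5 already in Naïve, with a mean ratio of 1.23, whereas the ratio of Psmb9 to Psmb6 was 0.31 and that of Psmb10 to Psmb7 was 0.52. Under IFNγ these means were 2.65, 1.00 and 1.15. These levels depend on the transcript chosen for each gene, which the deposited table does not give.

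Of the other regulators, Psme3 (PA28γ), a nuclear activator not induced by interferon, stood at 249, 278 and 271 in Naïve, 429, 542 and 524 in αCD3, 238, 286 and 282 in IFNγ and 534, 592 and 559.7 in LPS. The IFNγ libraries overlapped Naïve (log2 fold change 0.02 ± 0.10 SE, edgeR adjusted p = 0.941), and the αCD3 and LPS libraries were far above both. Psme3 rose by 0.91 (edgeR adjusted p = 7.61e-05) under αCD3 and by 1.08 (edgeR adjusted p = 1.53e-05) under LPS, and it was 1.85-fold and 2.09-fold lower under IFNγ than under αCD3 and LPS. Psme4 (PA200), another nuclear activator, stood at 99.9, 112 and 105 in Naïve, 111, 140.4 and 126 in αCD3, 119.5, 144 and 133 in IFNγ and 117, 122 and 112 in LPS. It rose only slightly under IFNγ, without overlap (log2 fold change 0.32 ± 0.09 SE, edgeR adjusted p = 0.0472), and that call was lost in 12 of 18 refits. Under αCD3 and LPS its log2 fold changes were 0.25 (edgeR adjusted p = 0.0542) and 0.14 (edgeR adjusted p = 0.231), and both were called with the block (adjusted p = 0.00379 and 0.0482). Psmf1 (PI31), first described as an inhibitor of the 20S core, stood at 49.4, 54 and 49.1 in Naïve, 55.7, 60.5 and 63.6 in αCD3, 60.7, 60.1 and 59.6 in IFNγ and 59.9, 64 and 67.4 in LPS. It rose in all 3 treatments, by 0.24 under IFNγ, 0.24 under αCD3 and 0.33 under LPS, and its IFNγ call was lost in 14 of 18 refits.

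The chaperones that build the α ring, Psmg1 to Psmg4, were called under αCD3 and LPS, and of the 4 only Psmg4 was called under IFNγ. Psmg1 stood at 11, 13.8 and 16.5 in Naïve, 23.6, 34.3 and 36 in αCD3, 11, 16.5 and 19.8 in IFNγ and 32.3, 36.9 and 34.7 in LPS. Psmg2 stood at 19.6, 23.5 and 22.5 in Naïve, 38.3, 48.9 and 46.7 in αCD3, 24.1, 22.9 and 24.1 in IFNγ and 45.4, 56.4 and 48.9 in LPS. Psmg3 stood at 9.51, 11.3 and 10.7 in Naïve, 17, 20.8 and 21.5 in αCD3, 11.3, 11.9 and 11.3 in IFNγ and 15.5, 20.8 and 18.2 in LPS. In all 3 genes the IFNγ values met those of Naïve and the αCD3 and LPS values were apart from both. Their log2 fold changes under αCD3 were 1.18, 1.03 and 0.91, and under LPS 1.34, 1.20 and 0.80, all called. Under IFNγ they were 0.19 (edgeR adjusted p = 0.66), 0.12 (edgeR adjusted p = 0.58) and 0.13 (edgeR adjusted p = 0.59). Psmg4 stood at 14.9, 18.3 and 17.5 in Naïve, 29.1, 37.1 and 33.5 in αCD3, 21.9, 28.2 and 30.2 in IFNγ and 23.4, 34.1 and 31 in LPS. It rose in all 3 treatments, including IFNγ (log2 fold change 0.67 ± 0.16 SE, edgeR adjusted p = 0.0236), where the groups did not overlap and the call was lost in 5 of 18 refits.

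**Figure D5:**
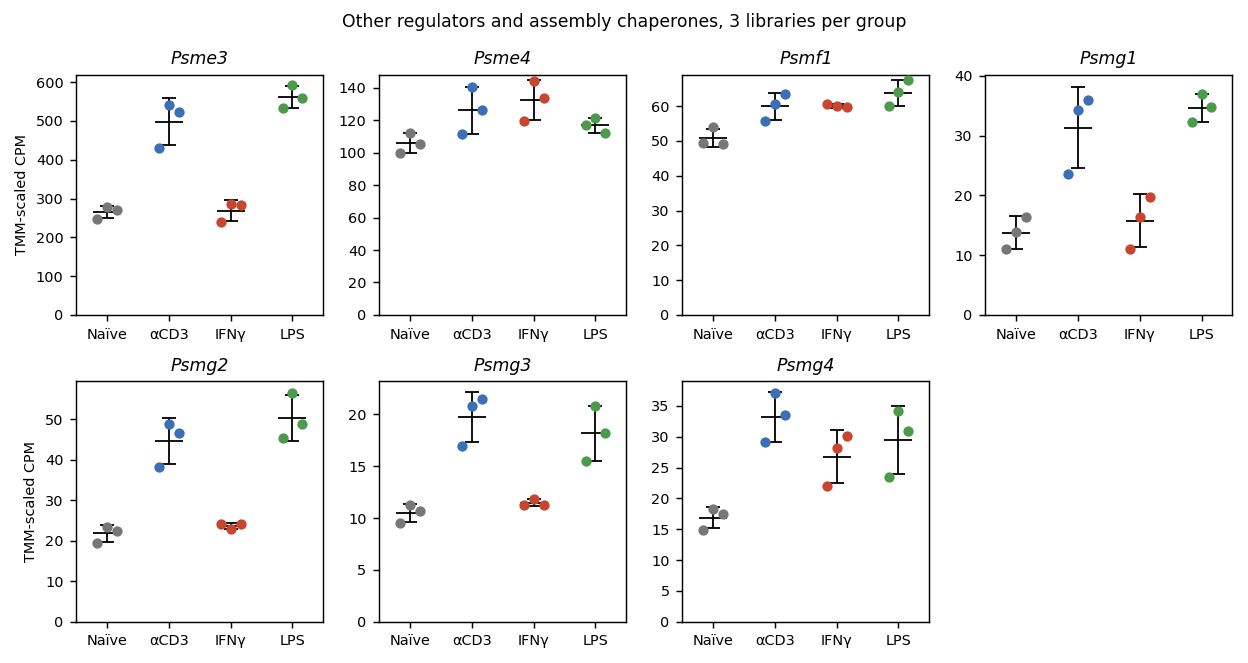
Levels of Psme3, Psme4, Psmf1 and the 4 assembly chaperones in each library (y axis, TMM-scaled CPM, each from 0) by group (x axis). Points are libraries, lines the mean and bars ± SD (n = 3). For Psme3, Psmg1, Psmg2 and Psmg3 the IFNγ points sit with Naïve, and for Psmg4 they sit above it.

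Across all 4 groups, 45 of the 47 members differed (edgeR adjusted p under 0.05 for any difference), beside 59.9% of all tested genes. The exceptions were Psmb1 (edgeR adjusted p = 0.0533) and Psmd10, and Psmb1 passed with the block (adjusted p = 0.000364). As a description over the 12 libraries, which share groups, replicate numbers and depth, log2 CPM of the immune subunits correlated with each other with a median Pearson's r of 0.875 over 10 pairs. The 31 subunits of the α ring, β ring and 19S particle that are not immune correlated with each other with a median of 0.904. Pairs of an immune and such a subunit had a median of 0.515, with a range from −0.043 to 0.973. With the mean of those 31 genes, r was 0.32 for Psmb9, 0.36 for Psmb8 and 0.38 for Psmb10, whereas it was 0.68 for Psme1 and 0.80 for Psme2. The members most like Psmb9 by r were Psmb8 at 0.981, Psmb10 at 0.947 and Psme2b at 0.920.

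A list of 47 genes around the proteasome (assembly and shuttle factors, ubiquitin genes, transcription factors and the MHC class I peptide pathway) had 42 in the table, all tested. Under IFNγ 12 of them rose and 1 fell, beside 8.17% and 4.27% of all tested genes. Under αCD3 21 rose and 2 fell, beside 22.9% and 15.7%, and under LPS 28 rose and 1 fell, beside 26.9% and 22.3%. The medians were 0.13, 0.29 and 0.42. Pomp, the chaperone that completes the core, stood at 37.2, 48.6 and 47.9 in Naïve, 66.3, 89.6 and 89.2 in αCD3, 55.9, 77 and 74.9 in IFNγ and 54, 76.1 and 72.9 in LPS and rose in all 3 treatments, by 0.64 under IFNγ, 0.87 under αCD3 and 0.61 under LPS.

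Irf1, a transcription factor of the immune subunit genes, stood at 239, 267 and 310.2 in Naïve, 339, 546 and 447 in αCD3, 1292, 1102 and 1141 in IFNγ and 389, 1039 and 998 in LPS. All IFNγ libraries were above all others, and the Naïve and αCD3 groups did not overlap either. Irf1 rose under IFNγ (log2 fold change 2.11 ± 0.32 SE, edgeR adjusted p = 0.00226) and LPS (log2 fold change 1.57 ± 0.32 SE, edgeR adjusted p = 0.00227), with 0.70 (edgeR adjusted p = 0.0969) under αCD3. Nlrc5, the transactivator of MHC class I genes, stood at 81.5, 111 and 92.4 in Naïve, 102, 189.8 and 201 in αCD3, 225, 382 and 332 in IFNγ and 179, 283 and 289.6 in LPS, with log2 fold changes of 1.72 (edgeR adjusted p = 0.00388) under IFNγ, 0.79 (edgeR adjusted p = 0.0508) under αCD3, called only with the block, and 1.40 (edgeR adjusted p = 0.00264) under LPS. Tap1, a subunit of the peptide transporter whose gene adjoins Psmb9, rose by 1.55, 0.69 and 1.28 in the same order.

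Nfe2l1, which raises the whole set of constitutive subunits when proteasome activity falls short, stood at 146, 147 and 143 in Naïve, 166, 176 and 172 in αCD3, 146, 146 and 142 in IFNγ and 245, 238 and 217 in LPS. It rose under LPS (log2 fold change 0.68 ± 0.06 SE, edgeR adjusted p = 9.15e-06) and αCD3 (log2 fold change 0.24 ± 0.06 SE, edgeR adjusted p = 0.00842), and its IFNγ values overlapped Naïve (log2 fold change -0.01 ± 0.06 SE, edgeR adjusted p = 0.946). Nfe2l2, its relative in the response to oxidative stress, had 0.26 (edgeR adjusted p = 0.0663) under IFNγ, called only with the block, -0.26 (edgeR adjusted p = 0.0315) under αCD3, a fall, and 0.23 (edgeR adjusted p = 0.0382) under LPS.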

How the data were processed

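RNA was measured by mRNA sequencing in 12 libraries, 3 for each of 4 groups given by the labels. Reads were pseudo-aligned by the authors (kallisto, mm10, per the labels), who deposited expected counts, that is estimated counts per gene symbol, not scaled to depth. The kallisto version and the annotation are not given in the sources used here, and 8784 to 10011 genes per library held fractional values. The 47 members and all gene lists were chosen with earlier results of these data known.

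The counts were rounded and tested over 12122 genes with edgeR 4.0.16 (R 4.3.3; TMM factors, filterByExpr, quasi-likelihood F-test, all 12 libraries in 1 fit), with Benjamini-Hochberg adjustment over all tested genes. DESeq2 1.42.0 was an alternative, and the labels name DESeq2 1.24.0. Levels are CPM on TMM-scaled library sizes. The groups share replicate numbers, and the data point to pairing: deviations from the group means correlated in 18 of 18 same-numbered pairs (r of 0.21 to 0.54), against −0.45 to 0.16 for the others, so calls of the immune subunits that change with the number as a block are given both ways, as are counts of the 42 other subunits that it moves by over 1.5 times. Genes named were the immune subunits, Psmb5, Psmb6, Psmb7, the regulators and Psmg chaperones, the 3 other called members with the largest change in each direction (mean of at least 5 CPM) in each comparison with Naïve and in IFNγ against αCD3, and 6 related genes. A further related gene and a further motif are not reported here. Psmd10, Psmd9 and others outside this rule were named after their values were seen. Word uniqueness was counted over 31-base words of GENCODE M21 transcripts. The promoter motifs were settled after matches had been seen, a longer form of the IRF element having been searched first. Depth was 10.2 M to 27.6 M counts, and intervals for single libraries are not given.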

Additional observations from a re-analysis of the deposited data

How the results depend on the processing

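The rise of all 5 immune subunits under IFNγ and under LPS kept its count in every refit run: another normalization, no count filter, DESeq2's test, the replicate block, each library left out in turn, and the libraries numbered 1 left out (chosen after seeing the data). In IFNγ against αCD3, 3 immune subunits were called in each of these refits except the replicate block, which called 4, Psme1 among them. Leaving out 1 library at a time gave 5 to 5, 5 to 5 and 3 to 3 calls. No single member reversed its direction while called, in 4794 unchanged, 109 stronger and 173 weaker outcomes.

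Other counts depended on the settings, and the cause was not tested. Of the other subunits, 8 were called in IFNγ against Naïve, but 5 with DESeq2 size factors, 4 with no count filter, 14 with the replicate block and 1 to 10 leaving out 1 library, and their median of 0.10 reversed to −0.039 on plain library size. In αCD3 against Naïve, 2 immune subunits were called on plain library size and 2 to 4 leaving out 1 library, and 34 to 40 others. In IFNγ against LPS, 2 immune subunits were called on plain library size, 2 with DESeq2's Wald test, 4 with the replicate block, 4 without the libraries numbered 1 and 0 to 1 leaving out 1 library, and 25 to 33 others. In αCD3 against LPS, 1 immune subunit was called with DESeq2's Wald test, 4 with the block, 4 without the libraries numbered 1 and 0 to 2 leaving out 1 library. Others called there were 1 on plain library size (higher under αCD3), 0 with no count filter, 8 with the block, 6 without the libraries numbered 1 and 0 to 3 leaving out 1 library. The others ranged from 25 to 30 calls in IFNγ against αCD3 and from 37 to 40 in LPS against Naïve, and members that differed among the groups from 42 to 46. Beyond these and the calls given in the report, the replicate block moved no count of called immune or other subunits by over 1.5 times.

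At 3 libraries per group small changes can be missed, and reads shared between near copies (Psme2 and Psme2b, Psmb5 and its pseudogene, Psma5) limit single values.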
